A study of Sus scrofa with 40 samples.

Results

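The protein components of the cytosolic ribosome were followed across 4 meat cuts of the Chalu black pig. The genes were those whose deposited symbol is RPL or RPS followed by a digit, together with RPLP0, RPLP1, RPLP2 and RPSA and without the 9 RPS6K kinase genes. The rule found 58 of the 21280 genes measured, 35 of the large and 23 of the small subunit, on 16 chromosomes. RNA was sequenced from pork belly (PB), trapezius muscle (TM), hamstring muscle (HM) and longissimus dorsi muscle (LDM), with 10 libraries per cut. All pigs were males sharing a sire and rearing conditions, with no treatment named, and the labels used here give no age. Tissue came from the left carcass side, away from fascia, after a fast and routine slaughter. No cut is a control, and each pair below sets one cut over another. Libraries are named by cut and number, such as HM5. The labels do not say whether each library of a cut is a separate pig. The p-values thus measure the spread between these libraries, which may be in part technical. Nor do the labels say whether libraries of the same number in different cuts come from the same pig. The main fit treats them as unpaired, although libraries of the same number had correlated values. A fit with the number as a block is given at the end.

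Ribosomes translate messenger RNA into protein: the small subunit decodes the message and the large subunit joins the amino acids. The proteins of both subunits are assembled with ribosomal RNA, largely in the nucleolus. Most of their messages carry a terminal oligopyrimidine (TOP) tract through which the mTOR pathway controls their translation. Some components have paralogs with a tissue preference, such as RPL3L, the form of RPL3 in heart and skeletal muscle of mouse and human.

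Library totals ran from 12305913 to 17735722 counts. Of 10 slow fibre markers 10 were higher, and of 11 fast fibre markers 10 were lower, in PB, in TM and in HM than in LDM. Mitochondrially encoded genes took 12.5% ± 1.96 of all counts in PB, 7.53% ± 1.80 in TM, 9.12% ± 1.53 in HM and 4.97% ± 0.827 in LDM (SD, n = 10 each). Over all genes, TM3 lay nearest to HM, HM6 nearest to TM, and TM7 and HM9 nearest to LDM. The library PB1 is titled PB while its tissue field names the longissimus. It lay nearest to PB and was kept there.

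Of the 58 genes, 54 passed the filter on low counts. The other 4 were RPL10A with 60 counts in PB, 70 in TM, 70 in HM and 90 in LDM, RPL29 with 6 in PB, 35 in TM, 14 in HM and 12 in LDM, RPL26 with 1 in PB, 6 in TM, 6 in HM and 1 in LDM, and RPL10L with 0 in every cut. RPL10L, in mouse a testis copy of RPL10, had 0 of 598834545 counts, which allows a share of up to 5.01e-07% (3 counts, for counting error only). Levels are compared between genes as FPKM, which is per gene length and library total. The median FPKM of the 54 genes was 70.6, against 2.65 over the 11713 genes tested. RPLP1 led with 864 FPKM, followed by RPS7 with 396 and RPL10 with 362, and RPL35A with 7.66, RPS27L with 3.72 and RPS13 with 3.04 were the lowest of the 54. These ranks rest on the deposited gene models. Ribosomal protein genes have near-identical processed copies in mammalian genomes. Reads shared with such copies could be lost or split in the authors' counting, so single values are uncertain to that extent.

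Ribosomal protein messages took the largest share of counts in LDM and the smallest in PB. The 58 genes together took 0.731% ± 0.0904 of all counts in PB, 0.912% ± 0.0775 in TM, 0.819% ± 0.0885 in HM and 0.996% ± 0.0930 in LDM (SD, n = 10 each). The share ran from 0.624% to 0.926% with a median of 0.723% in PB, from 0.791% to 1.03% with a median of 0.926% in TM, from 0.722% to 0.949% with a median of 0.798% in HM, and from 0.877% to 1.14% with a median of 1.01% in LDM. The ranges of all cuts overlapped. With mitochondrially encoded genes out of the totals the means were 0.835% in PB, 0.986% in TM, 0.901% in HM and 1.05% in LDM. In bulk tissue, fewer cells of a type and less RNA per cell cannot be told apart.

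The large subunit took 0.459% of counts in PB, 0.572% in TM, 0.512% in HM and 0.633% in LDM, and the small subunit 0.272% in PB, 0.340% in TM, 0.307% in HM and 0.363% in LDM. Both subunits thus had the same order of cuts. The ratio of large to small subunit counts was 1.69 ± 0.0561 in PB, 1.68 ± 0.0551 in TM, 1.67 ± 0.0582 in HM and 1.74 ± 0.0428 in LDM (SD, n = 10 each).

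**Figure D1:**
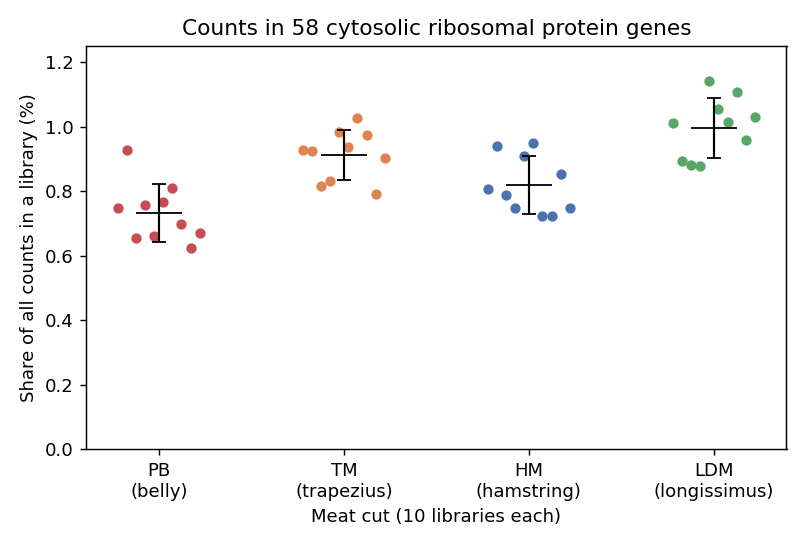
Share of each library's counts (vertical axis, percent) in the 58 cytosolic ribosomal protein genes, by meat cut. Points are libraries, 10 per cut, with the mean and SD; the means were 0.731% in PB, 0.912% in TM, 0.819% in HM and 0.996% in LDM.

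Across the 4 cuts 43 of the 54 genes differed in the F test of edgeR's quasi-likelihood fit at an adjusted p under 0.05 (Benjamini-Hochberg over all genes tested), which is 79.6%, against 57.2% of all genes tested. By subunit these were 24 of 31 large (77.4%) and 19 of 23 small subunit genes (82.6%). Of the 54 genes 45 were in the most abundant quartile of all genes tested, and genes with more counts pass more easily. The shares called here and below were not set against genes of like abundance, so an excess may in part reflect count depth. No gene passed with a change of 2-fold or more in any pair. The mean level in TMM-scaled CPM, a count corrected for library size and composition, was highest in PB for 3 genes, in TM for 3, in HM for 5 and in LDM for 43, and it was lowest in PB for 35. Among the genes that passed in no pair were RPL11, RPL21, RPL26L1, RPL37, RPS12, RPS13 and RPS29.

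**Figure D2:**
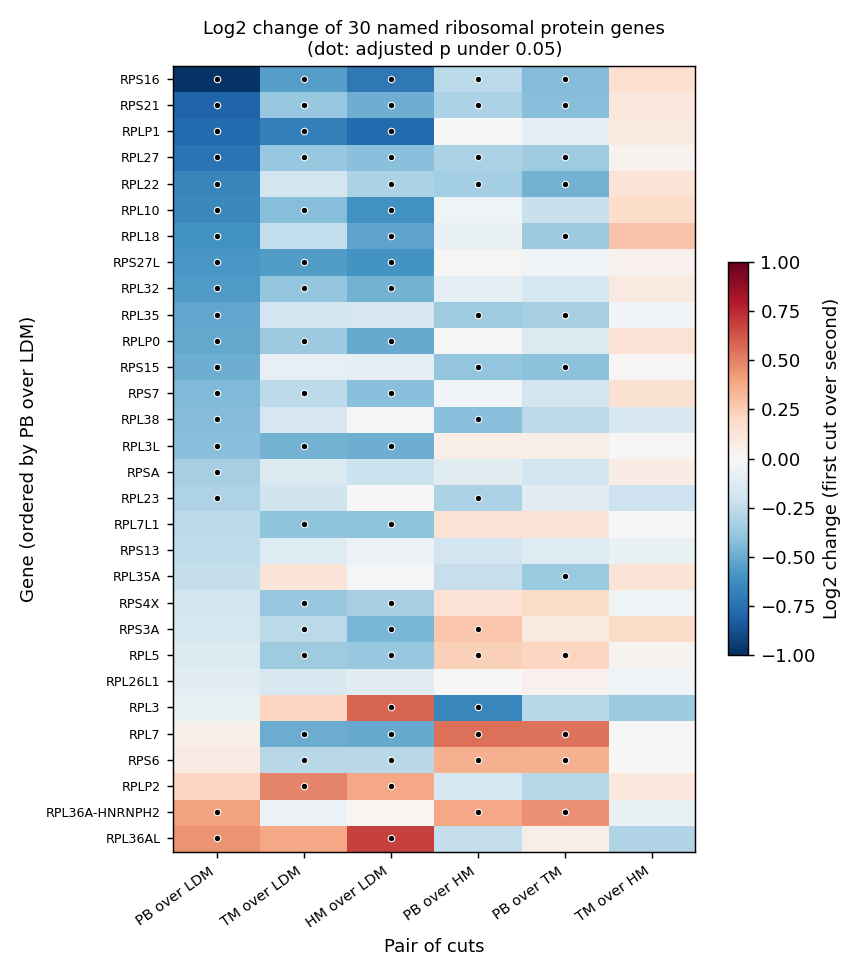
Log2 change of 30 of the 54 tested genes, those described by name (rows), in the 6 pairs of cuts (columns), coloured by sign and size, with a dot where the adjusted p is under 0.05. Part of these 30 were chosen for a small adjusted p in these pairs, so their dots do not stand for the 54. Of the 54, 61.1% were lower in PB, 38.9% in TM and 50% in HM than in LDM. Of all genes tested 21.2%, 13.4% and 16.0% were lower. TM over HM has no dot.

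In PB 33 genes were lower and 2 higher than in LDM, where 21.2% of all genes tested were lower and 20.5% higher. The median log2 change was -0.34 over the 54 genes and -0.02 over all genes tested. It was -0.15 over the most abundant quartile of all genes tested, which held 45 of the 54. By subunit, 17 of 31 large subunit genes were lower and 2 higher, and 16 of 23 small subunit genes were lower and 0 higher. Higher in PB were RPL36AL and RPL36A-HNRNPH2, described below. Genes for which the PB and LDM libraries did not overlap included RPS16, RPLP1, RPS21, RPL27 and RPL10.

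RPS16 (chromosome 6, 48085672 to 48088431, - strand on Sscrofa11.1), a small subunit protein whose tail reaches the transfer RNA in the decoding centre, had the smallest adjusted p. It ranged over 55.3 to 96.7 CPM (median 80.2) in PB, 87.3 to 127 CPM (median 105) in TM, 74.5 to 113 CPM (median 93.2) in HM, and 124 to 184 CPM (median 151) in LDM. All PB and all HM libraries lay below the lowest LDM library, and 9 of 10 TM libraries did. The log2 change was -0.98 ± 0.103 (SE) in PB over LDM (adjusted p = 2.13e-09), -0.55 ± 0.102 in TM over LDM (adjusted p = 0.000132) and -0.72 ± 0.102 in HM over LDM (adjusted p = 3.59e-06). All 3 pairs share the LDM libraries.

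RPS21, a small subunit protein, ranged over 10.97 to 19.2 CPM (median 16.2) in PB, 18.1 to 24.5 CPM (median 20.9) in TM, 14.1 to 28.9 CPM (median 18.7) in HM, and 21.4 to 35.3 CPM (median 26.5) in LDM, and PB and LDM did not overlap (-0.80 ± 0.117, adjusted p = 1.44e-06). RPL27 of the large subunit ranged over 63.2 to 95.1 CPM (median 75.8) in PB, 82.7 to 115 CPM (median 98.2) in TM, 66.6 to 143 CPM (median 85.6) in HM, and 102 to 166 CPM (median 129.6) in LDM, with no overlap of PB and LDM (-0.74 ± 0.113, adjusted p = 2.78e-06). RPL10, an X-linked protein that joins the large subunit late in its assembly, ranged over 281 to 507 CPM (median 437) in PB, 402 to 597 CPM (median 505) in TM, 367 to 567 CPM (median 419) in HM, and 519 to 866 CPM (median 643) in LDM (-0.65 ± 0.103, adjusted p = 5.35e-06). All 3 genes were also lower in TM and in HM than in LDM: the log2 changes of RPS21, RPL27 and RPL10 were -0.38, -0.38 and -0.42 in TM, and -0.48, -0.42 and -0.61 in HM. RPL32 of the large subunit had log2 changes over LDM of -0.56 in PB, -0.38 in TM and -0.47 in HM (adjusted p = 2.21e-06, 0.000843 and 6.67e-05). RPL18 of the large subunit was lower in PB and in HM than in LDM (-0.61 and -0.53, adjusted p = 2.04e-05 and 0.000228).

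The stalk of the large subunit, where elongation factors dock, is built from RPLP0 at its base and from RPLP1 and RPLP2. RPLP1 (chromosome 1, 167296090 to 167298266, + strand) ranged over 304 to 441 CPM (median 389.7) in PB, 334 to 477 CPM (median 416) in TM, 290.5 to 498 CPM (median 371) in HM, and 514 to 832 CPM (median 626) in LDM. Every PB, TM and HM library lay below every LDM library, and the PB, TM and HM ranges overlapped. The log2 change over LDM was -0.78 ± 0.101 in PB, -0.68 ± 0.101 in TM and -0.78 ± 0.101 in HM (adjusted p = 1.84e-07, 9.26e-06 and 1.08e-06). RPLP0 was lower than in LDM as well, with log2 changes of -0.51 in PB, -0.36 in TM and -0.51 in HM (adjusted p = 0.000163, 0.00894 and 0.000299).

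RPLP2 (chromosome 2, 435122 to 509818, + strand) had the opposite sign. It ranged over 60.6 to 101 CPM (median 77.2) in PB, 57.3 to 151 CPM (median 84.8) in TM, 58.4 to 144 CPM (median 83.7) in HM, and 56.3 to 93.0 CPM (median 62.6) in LDM, and all cuts overlapped. It was higher in TM than in LDM (0.49 ± 0.143, adjusted p = 0.0103) and in HM than in LDM (0.39 ± 0.143, adjusted p = 0.0343), and its change in PB over LDM of 0.21 ± 0.143 did not pass (adjusted p = 0.249). RPLP2 passed in PB over LDM with the pair fitted alone (0.26, adjusted p = 0.0482) and with a gene length correction (0.41, adjusted p = 0.00711). The HM call was lost without TM3, TM8, HM2, HM3, HM5, HM10, LDM2, LDM4, LDM5, LDM7 or LDM9 (adjusted p up to 0.114) and with the ribosomal protein genes out of the scaling (adjusted p = 0.0543). RPSA, a small subunit protein also known as a laminin receptor, averaged 208 ± 41.4 CPM in PB, 237 ± 35.5 CPM in TM, 225 ± 36.7 CPM in HM, and 261 ± 27.7 CPM in LDM (SD, n = 10 each). It was lower in PB than in LDM (adjusted p = 0.011), and its log2 changes of -0.14 in TM and -0.22 in HM over LDM did not pass. The HM change of RPSA passed without HM2, LDM7 or LDM9 (adjusted p down to 0.0424) and with a gene length correction (adjusted p = 0.0239).

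**Figure D3:**
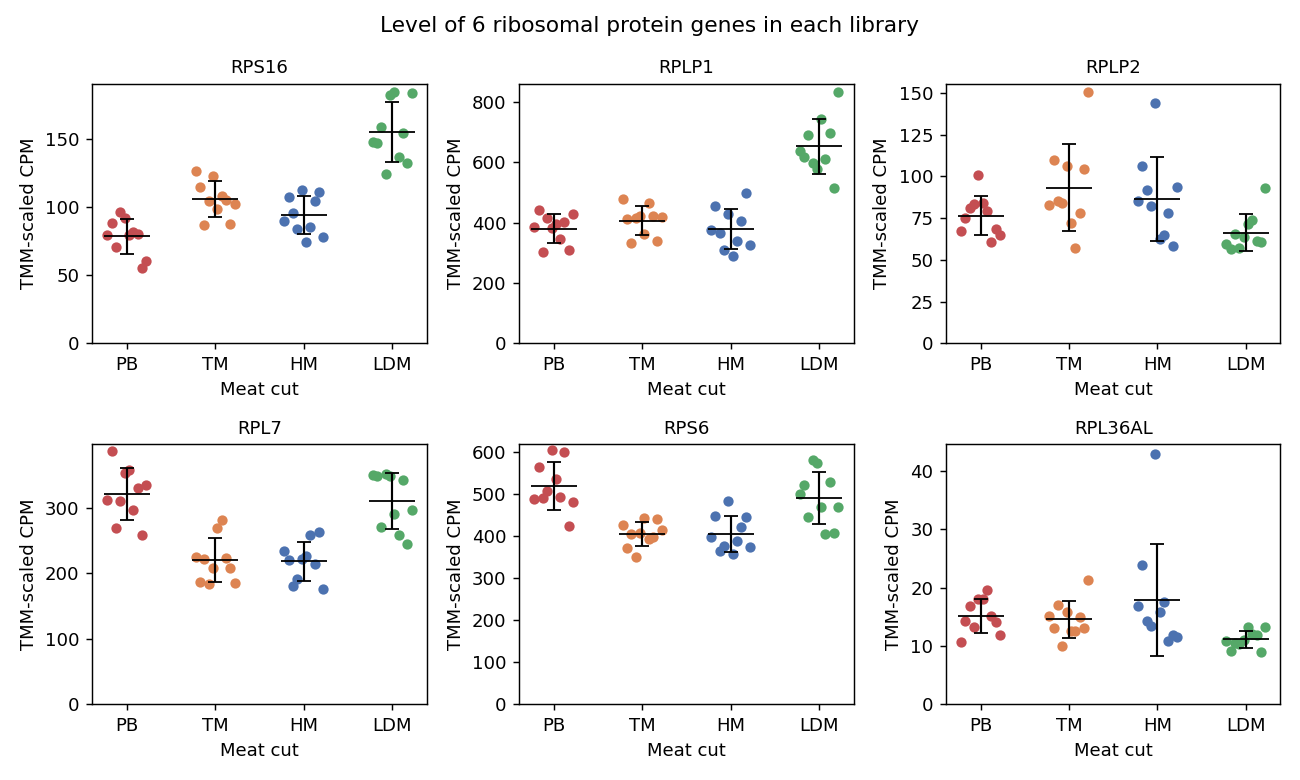
Level of RPS16, RPLP1, RPLP2, RPL7, RPS6 and RPL36AL (vertical axes, TMM-scaled CPM) in each library, with the mean and SD of each cut. For RPLP1 all LDM libraries lie above all others, and for RPL7 the means of TM and HM lie below those of PB and LDM.

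In TM 21 genes were lower and 1 higher than in LDM (13.4% and 11.3% of all genes tested), with a median log2 change of -0.20 against 0.04 over all genes tested. In HM 27 were lower and 3 higher (16.0% and 16.5%), with medians of -0.25 and 0.08. The most abundant quartile of all genes tested, which held 45 of the 54, had medians of -0.16 in TM and -0.13 in HM. The member median in TM was thus near that of abundant genes. The gene higher in TM was RPLP2, and those higher in HM were RPLP2, RPL3 and RPL36AL. Small subunit genes had 10 lower and 0 higher of 23 in TM, and 11 lower and 0 higher in HM.

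**Figure D4:**
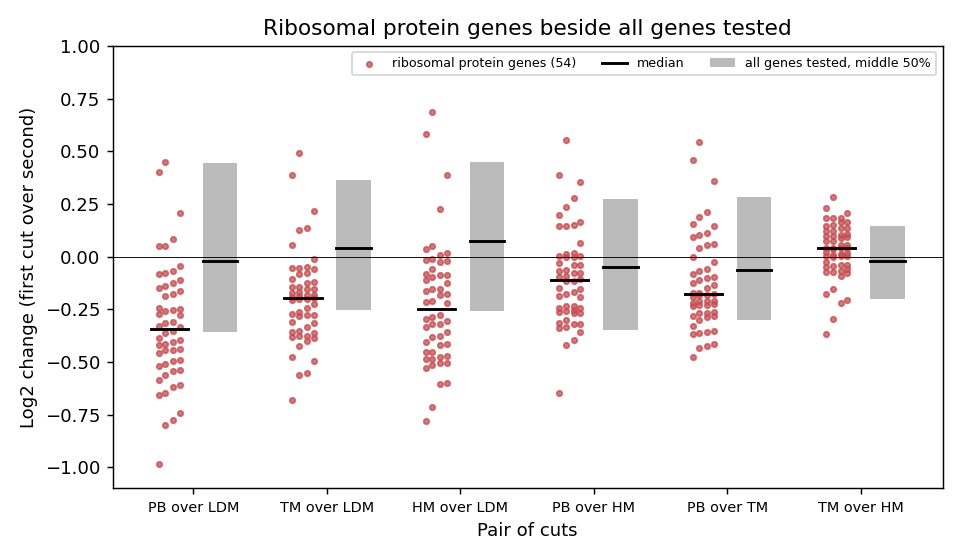
Log2 change in each pair of cuts for the 54 ribosomal protein genes (red points) beside the middle 50% of all genes tested (grey bars), with medians as black lines. The medians of the ribosomal protein genes over LDM were -0.34 in PB, -0.20 in TM and -0.25 in HM, against -0.02, 0.04 and 0.08 for all genes tested. For the most abundant quartile of all genes, not drawn, they were -0.15, -0.16 and -0.13.

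Of the 54 genes 9.26% were higher in PB than in HM and 7.41% higher than in TM, below the 13.5% and 13.4% of all genes tested. RPL7 of the large subunit (chromosome 4, 62602431 to 62605892, + strand) ranged over 259 to 387 CPM (median 321) in PB, 184 to 283 CPM (median 216) in TM, 176 to 264 CPM (median 221) in HM, and 245 to 352 CPM (median 319.9) in LDM. Of the 10 PB libraries 9 were above the highest HM library and 8 above the highest TM library. The log2 change was 0.55 ± 0.097 in PB over HM (adjusted p = 5.04e-05) and 0.55 ± 0.097 in PB over TM (adjusted p = 7.27e-05). It was -0.50 ± 0.097 in TM over LDM and -0.50 ± 0.097 in HM over LDM (adjusted p = 0.000254 and 0.000159), and the change of 0.05 ± 0.097 in PB over LDM did not pass (adjusted p = 0.715).

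RPS6 (chromosome 1, 203444450 to 203451468, + strand), the small subunit protein phosphorylated by the S6 kinases, ranged over 424 to 605 CPM (median 499) in PB, 351 to 442 CPM (median 405) in TM, 357 to 482 CPM (median 392) in HM, and 405 to 580.3 CPM (median 484) in LDM. It was higher in PB than in HM (0.36 ± 0.082, adjusted p = 0.00115) and than in TM (0.36 ± 0.082, adjusted p = 0.00151), with ranges that overlapped. In PB over LDM its change of 0.08 ± 0.082 did not pass (adjusted p = 0.445).

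RPL5, which together with RPL11 binds MDM2 when ribosome assembly is disturbed, averaged 254 ± 25.5 CPM in PB, 219 ± 12.3 CPM in TM, 215 ± 25.5 CPM in HM, and 279.6 ± 35.6 CPM in LDM (SD, n = 10 each). It was higher in PB than in HM (0.24 ± 0.080, adjusted p = 0.0229), a call lost without HM10 (adjusted p = 0.0556). Its change in PB over TM (0.21 ± 0.080, adjusted p = 0.0469) did not pass without PB2, PB4, PB5, PB6, PB8, PB10, TM1, TM2, TM4, TM9, TM10, HM1 or HM3 (adjusted p up to 0.0941), nor under 3 of 12 other alternatives. RPS3A of the small subunit averaged 189.8 ± 32.7 CPM in PB, 178 ± 15.6 CPM in TM, 157 ± 21.8 CPM in HM, and 215 ± 20.5 CPM in LDM and was higher in PB than in HM (0.28 ± 0.092, adjusted p = 0.0209), a call lost without PB2 or HM10 (adjusted p up to 0.0617). RPS4X, an X-linked small subunit protein, averaged 271 ± 41.0 CPM in PB, 238 ± 26.1 CPM in TM, 245 ± 44.8 CPM in HM, and 309 ± 44.8 CPM in LDM, was lower in TM and in HM than in LDM (adjusted p = 0.00549 and 0.00996), and did not pass in PB over LDM (log2 change -0.19).

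Between PB and HM 5 genes were higher and 11 lower in PB (13.5% and 14.1% of all genes tested), with a median log2 change of -0.11 against -0.05. Between PB and TM 4 were higher and 12 lower in PB (13.4% and 9.69%), with medians of -0.18 and -0.06. Both splits moved with the scaling. In PB over HM they were 7 higher and 2 lower with mitochondrially encoded genes out of the scaling, 7 and 1 with the ribosomal protein genes out, and 6 and 5 with DESeq2 size factors. In PB over TM they were 5 and 6, 4 and 7, and 4 and 8, and 3 and 20 with upper-quartile scaling.

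Single libraries also moved these counts. In PB over HM lower genes numbered 1 to 13 with 1 library left out. They numbered 1 without TM3, TM8, LDM5, LDM7 or LDM9, 2 without HM5 or HM9, and 5 to 7 without PB1, PB3, PB6, PB9, PB10, TM5, TM6, TM7, HM2, HM4, HM6, HM7, LDM1 or LDM8. Higher genes numbered 8 without HM9 and 2 without HM10. In PB over TM lower genes numbered 4 without TM5 and 6 or 7 without PB9, TM6, TM8, TM10, HM4, HM6, HM7, HM9, LDM1, LDM5, LDM7, LDM8 or LDM9, and higher genes numbered 2 without PB8.

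The 4 lower genes of smallest adjusted p in PB over TM were RPS16, RPL22, RPS21 and RPL18. RPS16 had a log2 change of -0.43 ± 0.102 (adjusted p = 0.00195), RPS21 of -0.42 ± 0.117 (adjusted p = 0.00705) and RPL18 of -0.36 ± 0.106 (adjusted p = 0.011). The row with the symbol RPL22 averaged 188 ± 29.0 CPM in PB, 262 ± 33.6 CPM in TM, 238 ± 56.0 CPM in HM, and 297 ± 61.0 CPM in LDM (PB over TM -0.48 ± 0.125, adjusted p = 0.00492). Its description names ICMT, an enzyme that methylates prenylated proteins, so its values cannot be assigned to RPL22 alone.

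The 5 lower genes of smallest adjusted p in PB over HM were RPL3, given below, RPL35, RPS15, RPL38 and RPL23. RPL35 of the large subunit averaged 111 ± 21.4 CPM in PB and 142 ± 19.4 CPM in HM (adjusted p = 0.0111), and RPS15, needed for export of the small subunit from the nucleus, 72.1 ± 12.2 CPM in PB and 95.0 ± 27.3 CPM in HM (adjusted p = 0.0161). RPL38, in mouse required for translation of Hox messages, averaged 20.3 ± 2.45 CPM in PB and 27.2 ± 8.24 CPM in HM (adjusted p = 0.0192), and RPL23 of the large subunit 145 ± 20.2 CPM in PB and 181 ± 39.6 CPM in HM (adjusted p = 0.0194). All 4 calls were lost without TM3, TM8, LDM5, LDM7 or LDM9. RPL35 also lost it without HM9, RPS15 without HM5, RPL38 without HM5 or HM9, and RPL23 without HM5, HM6 or HM9, with adjusted p-values up to 0.0682 for RPL35, 0.0676 for RPS15, 0.0736 for RPL38 and 0.112 for RPL23. All 4 were also lost with the ribosomal protein genes out of the scaling, and RPS15, RPL38 and RPL23 with mitochondrially encoded genes out or with a gene length correction.

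Between TM and HM no gene of the 54 passed (0 higher and 0 lower, against 0.410% and 0.359% of all genes tested), with a median log2 change of 0.04 against -0.02. At an unadjusted p under 0.05 edgeR gave 2 of them, DESeq2 4 and limma-voom 3, against 12.7%, 13.7% and 17.1% of all genes tested, and after adjustment each of these tools gave 0. RPL18 had the smallest p in each tool, with 135 ± 17.3 CPM in TM and 111 ± 18.3 CPM in HM (0.28 ± 0.105, adjusted p = 0.215 in edgeR).

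RPL3L (chromosome 3, 40005075 to 40016702, + strand) ranged over 164 to 287 CPM (median 216) in PB, 173 to 290.4 CPM (median 214) in TM, 155 to 252 CPM (median 224) in HM, and 261 to 391 CPM (median 283) in LDM. All HM libraries, 9 of 10 PB libraries and 9 of 10 TM libraries were below the lowest LDM library. The log2 change over LDM was -0.42 ± 0.108 in PB, -0.47 ± 0.108 in TM and -0.49 ± 0.108 in HM (adjusted p = 0.00203, 0.00128 and 0.000753).

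RPL3 (chromosome 5, 8922665 to 8929767, + strand), the widely expressed partner near the peptidyl transferase centre, had its highest mean in HM. It ranged over 52.8 to 163 CPM (median 79.1) in PB, 66.1 to 134 CPM (median 109) in TM, 84.7 to 235 CPM (median 131) in HM, and 67.6 to 115 CPM (median 86.5) in LDM. The HM libraries spread widely, and 5 of them were above the highest LDM library. RPL3 was higher in HM than in LDM (0.58 ± 0.178, adjusted p = 0.0112) and lower in PB than in HM (-0.65 ± 0.178, adjusted p = 0.00567), and both calls held with any 1 library left out. HM5 had the most RPL3 of HM in TMM-scaled CPM, 235.4, and the largest sum of 7 satellite cell markers, 1014 CPM in an HM range of 91.7 to 1014. HM6 had the most RPL3 of HM in FPKM, 170.1 against 159.4 in HM5, and the smallest satellite cell sum of HM. PB8 had the most RPL3 of PB on both scales, with the largest leukocyte sum, 310 CPM in a PB range of 41.3 to 310, and the smallest satellite cell sum of PB, 76.1 CPM. Of the satellite cell markers 1 was higher and 1 lower in HM than in LDM, and of 11 leukocyte markers tested 1 was higher and 0 lower, while LYZ, MS4A1, CD79A and CD3E did not pass the filter. Their part in the RPL3 level was not tested.

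Per gene length, the ratio of RPL3L to RPL3 FPKM was 1.78 ± 0.718 in PB, 1.29 ± 0.369 in TM, 1.11 ± 0.519 in HM and 2.07 ± 0.507 in LDM (SD, n = 10 each). It ranged from 0.706 to 2.85 in PB, 0.796 to 2.11 in TM, 0.464 to 1.79 in HM and 1.48 to 2.91 in LDM. In FPKM RPL3 thus exceeded RPL3L in at least 1 library of PB, TM and HM and in none of LDM. This rests on the deposited lengths, 1356 bases for RPL3 and 2203 for RPL3L. In TMM-scaled CPM the highest RPL3 value was below the lowest of RPL3L in PB (163 and 164 CPM) and in TM (134 and 173 CPM). On that scale RPL3 exceeded RPL3L in HM4 and HM5 only.

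**Figure D5:**
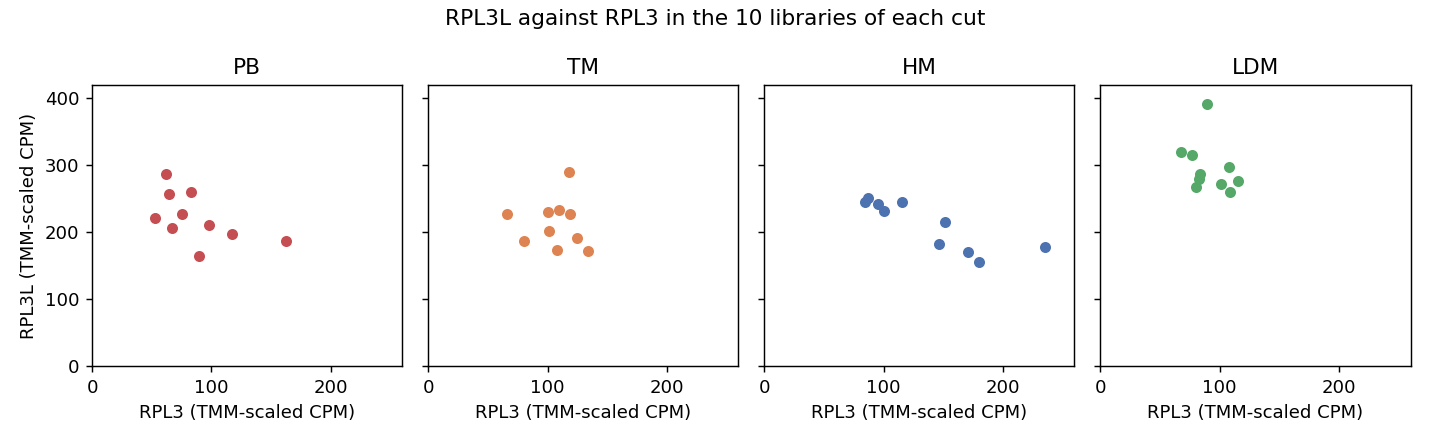
RPL3L (vertical axis) against RPL3 (horizontal axis) in TMM-scaled CPM, with 1 point per library, by cut. In HM high RPL3 goes with low RPL3L on this scale (r = -0.87 on log2 CPM), and all LDM points lie at 261 CPM or more of RPL3L. Without TMM scaling r in HM was -0.67, and no cut passed.

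RPL3 and RPL3L were correlated within each cut over 10 libraries, on log2 CPM with two-sided permutation tests adjusted over the 4 cuts. In HM Pearson's r was -0.87 (permutation p = 0.00165, adjusted 0.0066) and Spearman's rho -0.85 (permutation p = 0.00307, adjusted 0.0123). Without HM5 and HM9, the farthest from the RPL3 median, r was -0.90. Without HM6 and HM9, which lay nearest to other cuts, it was -0.86 (adjusted permutation p = 0.0283). In PB r was -0.57 (permutation p = 0.0857, adjusted 0.171) and rho -0.65 (p = 0.0494, adjusted 0.0988), and r was -0.61 without PB8 and PB10. In TM r was -0.07 (permutation p = 0.844) and rho -0.13, and r was -0.19 without TM6 and TM7. In LDM r was -0.35 (permutation p = 0.331, adjusted 0.441) and rho -0.43, and r was -0.21 without LDM5 and LDM7. With any 1 library left out r ran from -0.65 to -0.50 in PB, from -0.31 without TM1 to 0.14 without TM3 in TM, from -0.90 to -0.85 in HM, and from -0.60 without LDM10 to -0.25 without LDM4 in LDM. On CPM without TMM scaling the cuts lay closer together: r was -0.49 in PB, -0.30 in TM, -0.67 in HM and -0.47 in LDM (adjusted permutation p = 0.221, 0.39, 0.15 and 0.221). Spearman's rho on that scale was -0.56 in PB, -0.15 in TM, -0.71 in HM and -0.75 in LDM (adjusted permutation p = 0.13, 0.682, 0.052 and 0.052), so no cut passed there. Whether r differs between cuts was not tested.

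RPL36AL (chromosome 1, 179476639 to 179479148, - strand), an autosomal copy of the X-linked RPL36A, ranged over 10.6 to 19.6 CPM (median 14.8) in PB, 9.93 to 21.3 CPM (median 14.04) in TM, 10.8 to 42.8 CPM (median 15.1) in HM, and 8.92 to 13.3 CPM (median 10.9) in LDM. It was higher in HM than in LDM (0.68 ± 0.176, adjusted p = 0.0029), with 7 of 10 HM libraries above the highest LDM library, and higher in PB than in LDM (0.45 ± 0.176, adjusted p = 0.0378). HM5 held the highest value, and the HM call held with any 1 library left out. The PB call was lost without PB3, PB5, PB6, PB7, LDM2, LDM3 or LDM4 (adjusted p up to 0.0725).

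RPL36A-HNRNPH2 (chromosome X, 83018320 to 83022291, + strand), a model named for a readthrough of RPL36A into HNRNPH2, an RNA-binding protein gene, averaged 56.2 ± 15.5 CPM in PB, 40.8 ± 5.52 CPM in TM, 43.0 ± 11.07 CPM in HM, and 42.5 ± 9.67 CPM in LDM (SD, n = 10 each). It was higher in PB than in TM, HM and LDM (log2 changes of 0.46, 0.39 and 0.40, adjusted p = 0.0202, 0.0459 and 0.0255). All 3 calls were lost without PB8, the highest PB library. The call over LDM was also lost without LDM10 and with limma-voom (adjusted p = 0.0923), and that over HM without PB1, PB3, PB5, PB6, PB7, HM1, HM2, HM3, HM4 or HM10 (adjusted p up to 0.129) and under 3 of 12 other alternatives.

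RPS27L, which in human is induced by p53, ranged over 12.2 to 20.3 CPM (median 16.9) in PB, 12.1 to 28.2 CPM (median 14.8) in TM, 12.4 to 19.5 CPM (median 16.7) in HM, and 19.2 to 30.3 CPM (median 23.3) in LDM and had log2 changes over LDM of -0.58 in PB, -0.56 in TM and -0.60 in HM (adjusted p = 0.000347, 0.00116 and 0.000444). RPL7L1, a paralog of RPL7, averaged 23.6 ± 5.15 CPM in PB, 21.4 ± 3.99 CPM in TM, 21.3 ± 4.87 CPM in HM, and 28.2 ± 4.01 CPM in LDM. It was lower in TM and in HM than in LDM (adjusted p = 0.017 and 0.013) and did not pass in PB over LDM (-0.26, adjusted p = 0.0976). Without PB8, its highest PB library, RPL7L1 passed in PB over LDM as well (-0.35, adjusted p = 0.0197), as it did with limma-voom (adjusted p = 0.00742). RPL26L1, a paralog of RPL26, averaged 5.94 ± 0.939 CPM in PB, 5.76 ± 1.33 CPM in TM, 5.95 ± 0.983 CPM in HM, and 6.41 ± 1.46 CPM in LDM and passed in no pair. RPS13 averaged 1.88 ± 0.421 CPM in PB, 2.05 ± 0.39 CPM in TM, 2.15 ± 0.657 CPM in HM, and 2.24 ± 0.708 CPM in LDM and passed in no pair. RPS7 was lower in PB and in HM than in LDM (-0.44 and -0.41, adjusted p = 0.000268 and 0.000904). RPL35A was lower in PB than in TM (-0.37, adjusted p = 0.0443), a call lost in 26 of the 40 fits without 1 library and under 7 of 12 other alternatives.

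Libraries of a cut also differed in the ribosomal protein genes as a group. PB5 had 50 of the 54 genes above their PB mean and PB9 had 3. TM5 had 45 above the TM mean and TM3 had 8. HM2 had 51 and HM5 52 above the HM mean, and HM6 had 5. LDM10 had 48 above the LDM mean and LDM9 had 4. The scaling factors moved with this in places: PB5 had the lowest TMM factor of PB, 0.729, with a share of counts of 0.660%, and HM6 the highest factor of HM, 1.35, with the highest HM share, 0.949%.

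The genes were shorter and more abundant than most. Their median length was 1727.5 bases, against 4534 for all genes tested, 38 of the 54 were in the shortest quartile and 45 in the most abundant. The shortest quartile of all genes tested had a median log2 change over LDM of -0.15 in PB, -0.01 in TM and -0.02 in HM, and the most abundant had -0.15 in PB, -0.16 in TM and -0.13 in HM. With a gene length correction, chosen after seeing the data, 28 ribosomal protein genes were lower and 3 higher in PB than in LDM, 22 and 1 in TM, and 28 and 3 in HM. In PB over HM 3 were then lower and 5 higher, and in PB over TM 6 and 5. The median log2 change of the 54 genes was then -0.265 in PB over LDM, against -0.07 over all genes tested, a difference of -0.19 in place of -0.32 without the correction. In PB over TM the medians were -0.07 and -0.05, a difference of -0.02 in place of -0.12, and in PB over HM -0.03 and -0.02, a difference of -0.01 in place of -0.06. In TM and in HM over LDM the differences were -0.21 and -0.30, in place of -0.24 and -0.32.

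A further 26 genes carry no such symbol but are described as cytosolic ribosomal proteins, a group picked after values were seen. They took 0.272% ± 0.0399 of counts in PB, 0.363% ± 0.0369 in TM, 0.321% ± 0.0384 in HM and 0.394% ± 0.0394 in LDM (SD, n = 10 each), the same order as the 58 genes. Of 21 tested, 14 were lower and 0 higher in PB than in LDM, 3 and 0 in TM, and 5 and 0 in HM, with median log2 changes of -0.38, -0.15 and -0.18. The lower genes were 66.7% of the 21 in PB, 14.3% in TM and 23.8% in HM, against 21.2%, 13.4% and 16.0% of all genes tested, so the share in TM was near that of all genes. RACK1, a scaffold on the small subunit, averaged 384 ± 57.0 CPM in PB, 436 ± 47.8 CPM in TM, 398 ± 48.6 CPM in HM, and 514 ± 69.9 CPM in LDM and was lower in PB and in HM than in LDM (-0.42 ± 0.094 and -0.37 ± 0.094, adjusted p = 0.000473 and 0.00277). FAU, which encodes a ribosomal protein fused to a ubiquitin-like protein, was not tested.

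Of 11 elongation, termination and poly(A) binding genes tested, 4 were lower and 1 higher in PB than in LDM, 5 and 0 in TM, and 6 and 0 in HM, with median log2 changes of -0.17, -0.30 and -0.29. The lower genes were 36.4% of the list in PB, 45.5% in TM and 54.5% in HM, against 21.2%, 13.4% and 16.0% of all genes tested. EEF1B2 and EEF1D, which recharge the factor that delivers transfer RNA, were lower in each: EEF1B2 had -0.71 in PB, -0.37 in TM and -0.57 in HM, and EEF1D had -0.74, -0.50 and -0.66. EEF2, which moves the ribosome along the message, averaged 2413 ± 269.8 CPM in PB, 2600.4 ± 343 CPM in TM, 2619 ± 292 CPM in HM, and 3191 ± 639.6 CPM in LDM and was lower in PB, TM and HM than in LDM (adjusted p = 0.00237, 0.0363 and 0.0355). EEF1A2, the muscle form of the transfer RNA carrier, was lower in HM than in LDM (-0.46 ± 0.121, adjusted p = 0.00347), with -0.17 in PB and -0.07 in TM not passing. EEF1A1 was not analysed here. In PB over HM 2 of the 11 were higher and 0 lower, ETF1, a release factor (0.64), and PABPC4, a poly(A) binding protein (0.25). In PB over TM 3 were higher, among them ETF1 (0.79), and 1 lower, EEF1B2 (-0.34). The higher genes were 18.2% of the list in PB over HM and 27.3% in PB over TM, against 13.5% and 13.4% of all genes tested.

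Of 30 initiation factor genes tested, 15 were lower and 7 higher in PB than in LDM, 13 and 0 in TM, and 10 and 0 in HM. In PB 11 were higher and 1 lower than in HM, and 10 and 1 than in TM. Lower than in LDM were 50% of the list in PB, 43.3% in TM and 33.3% in HM, against 21.2%, 13.4% and 16.0% of all genes tested. Higher in PB than in LDM were 23.3% (20.5% of all genes). Higher in PB than in HM and TM were 36.7% and 33.3%, against 13.5% and 13.4% of all genes tested. EIF5B, which joins the subunits, ranged over 102 to 223 CPM (median 136) in PB, 22.6 to 52.9 CPM (median 34.6) in TM, 27.0 to 53.1 CPM (median 39.1) in HM, and 13.2 to 49.7 CPM (median 27.3) in LDM. No PB library overlapped another cut, and the log2 change was 2.19 ± 0.210 in PB over LDM (adjusted p = 2.75e-10) and 1.85 ± 0.207 in PB over HM (adjusted p = 2.48e-08). EIF4G3, a scaffold of the cap-binding complex, was higher in PB than in TM and HM (1.28 and 1.23, adjusted p = 2.46e-06 and 4.09e-06). EIF4H, a helper of the EIF4A helicase, was lower in PB and in TM than in LDM (-0.49 and -0.51), and EIF4A2, such a helicase, was lower in TM (-0.65). EIF1, which guards start codon choice, and EIF2B2, of the exchange factor for EIF2, were lower in HM than in LDM (-0.78 and -0.75).

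Of 38 ribosome biogenesis genes tested, 7 were lower and 11 higher in PB than in LDM, and 4 lower and 1 higher in TM and likewise in HM. The lower genes were 18.4% of the list in PB and 10.5% in TM and in HM, below the 21.2%, 13.4% and 16.0% of all genes tested, and the higher genes 28.9% in PB (20.5% of all genes) and 2.63% in TM and in HM (11.3% and 16.5%). POLR1A and POLR1D, subunits of the polymerase for ribosomal RNA, were lower in PB (-0.70 and -0.69) and in TM (-0.58 and -0.52), and in HM POLR1D was lower (-0.48) and GNL2, a nucleolar GTPase, higher (0.60). In PB over HM 6 were higher and 5 lower, among them TAF1D (1.06) and RRP9 (-0.46). These were 15.8% and 13.2% of the list, near the 13.5% and 14.1% of all genes tested. In PB over TM 8 were higher and 2 lower (21.1% and 5.26% of the list, against 13.4% and 9.69% of all genes tested). Among the higher were BMS1 and NCL (1.01 and 0.92), which act in the nucleolus.

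Of 19 mTOR and TOP message regulators tested, 6 were lower and 3 higher in PB than in LDM, 6 and 2 in TM, and 10 and 0 in HM. The lower genes were 31.6% of the list in PB and in TM and 52.6% in HM, against 21.2%, 13.4% and 16.0% of all genes tested. The higher genes were 15.8% in PB, 10.5% in TM and 0% in HM, against 20.5%, 11.3% and 16.5%. EEF2K, the kinase that inhibits EEF2, was lower in PB (-1.17) and in HM (-1.74), as was LARP1, which binds TOP messages, in PB (-0.45). DEPTOR, which binds mTOR, was lower in TM (-1.46) and in HM (-2.29), and CNBP, another TOP message binder, in TM (-0.57). In PB 6 were higher and 0 lower than in HM, and 3 and 1 than in TM. The higher genes were 31.6% and 15.8% of the list, against 13.5% and 13.4% of all genes tested. RPS6KB1, a kinase of RPS6, was higher in PB than in HM and TM (1.05 and 0.99), EIF4EBP1, an inhibitor of cap-dependent initiation, higher in PB than in HM (0.74), and TIAL1, an RNA-binding protein, higher in PB than in TM (0.54). TSC1, which restrains mTOR, was the 1 gene of this list that passed in TM over HM (0.51).

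Of 64 mitochondrial ribosomal protein genes tested, 27 were lower and 6 higher in PB than in LDM, 15 and 4 in TM, and 18 and 3 in HM, with median log2 changes of -0.20, -0.10 and -0.15. The lower genes were 42.2% of the list in PB, 23.4% in TM and 28.1% in HM, against 21.2%, 13.4% and 16.0% of all genes tested. Of 12 mitochondrially encoded genes tested, 12 were higher and 0 lower in PB than in LDM, 11 and 0 in TM, and 12 and 0 in HM, with medians of 2.21, 0.65 and 1.10.

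Markers of fibre type and of other cells were counted against the 20.5% of all genes tested that were higher in PB, 11.3% in TM and 16.5% in HM than in LDM, and the 21.2%, 13.4% and 16.0% that were lower. Summed slow fibre markers averaged 48074 CPM in PB, 61051 in TM, 44841 in HM and 15450 in LDM, with ranges of 26012 to 66418, 8948 to 123186, 13860 to 82162 and 7055 to 25145 CPM in the same order. Of 12 endothelial markers 2 were higher in PB, 9 in TM and 9 in HM than in LDM, with 0 lower, and their sum ranged from 377 to 952 CPM in PB, 384 to 993 in TM, 451 to 1148 in HM and 380.4 to 574 in LDM. Of 8 smooth muscle and pericyte markers 1 was higher in PB, 1 in TM and 7 in HM, with 0 lower. Of 10 fibroblast markers 3 were higher in PB, 2 in TM and 2 in HM, with 0 lower, which is 30%, 20% and 20% of the list and in HM near the share of all genes. Of 8 adipocyte markers 2 were lower in PB, 1 in TM and 1 in HM, with 0 higher. Of 11 leukocyte markers 3 were higher in PB, 1 in TM and 1 in HM, with 0 lower. Of 7 Schwann cell markers 2 were lower in PB, 1 was higher and 1 lower in TM, and 1 was lower in HM. Of 7 satellite cell markers 1 was lower in PB and 0 changed in TM, and the 1 red blood cell marker tested passed in no pair. The part of fibre type and of other cells in the ribosomal protein levels was not tested.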

How the data were processed

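The authors deposited read counts per gene for 40 libraries in 1 table with FPKM beside them, per the file headers. The deposited FPKM equals count over gene length and library total for 100% of values (relative tolerance 0.001). RNA was Trizol-extracted and the kit was stranded (KAPA), per the labels' protocols. Tools named by the submitters' processing notes are HTSeq 0.9.1, HISAT2 2.0.5 and cutadapt 1.15, with the build Sscrofa11.1. No source used here states how strand was handled, so overlapping and antisense genes cannot be told apart.

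Groups follow the titles. edgeR 4.0.16 (R 4.3.3) was run with TMM, filterByExpr by cut and a robust quasi-likelihood fit on cut over 40 libraries, and p-values were adjusted by Benjamini-Hochberg over 11713 genes (threshold 0.05). No 2 libraries agreed within sampling noise (chi-square per gene of at least 29.8 within cuts). Correlations used 100000 permutations. Alternatives were fitted and adjusted over all genes that passed their filter, with calls given for the ribosomal protein genes only. They were DESeq2 1.42.0, limma-voom with quality weights (limma 3.58.1), DESeq2 size factors, upper-quartile scaling, mitochondrially encoded genes or members out of the scaling, 2 other filters, a block on library number, each pair alone, each library out, and HM6, HM9, TM3 and TM7 out. The gene length correction, and the correlation without HM6, HM9, TM3 and TM7 or without each library, were added after seeing the data. The tests were checked on simulated data with 200 genes changed in PB, up and down alike, and with independent libraries. That check thus does not cover shifts from the scaling or the correlation of libraries of the same number.

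Members and lists were chosen with earlier results of these data known. The genes named are, per pair and direction, up to 5 members of smallest adjusted p, then paralogs, stalk members, RPSA, RPS6, the 3 highest and 3 lowest in FPKM, members under the filter, RACK1, FAU, EEF1A1, EEF1A2, EEF2 and up to 2 passing genes per list and pair. Mitochondrial lists are given as counts only. Some genes that this rule names are not reported here.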

Additional observations from a re-analysis of the deposited data

Results flagged for a closer look

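The 35 tested ribosomal protein genes named here, the share of counts in the 58 genes and the ratio of RPL3L to RPL3 were looked at in each cut for a library far from the other 9, by Dixon's ratio of the gap to the range, with a critical value of 0.466 for 10 libraries. Of 148 groups 15 were past it. Chance alone flags about 1 group in 20 where values are normal and groups independent. The values were not log-transformed and the groups share libraries, so the 15 cannot be read against that rate. HM5 stood apart for RPL23 with 278 CPM (nearest library 204), for RPL36AL with 42.8 CPM (23.8) and for RPS13 with 3.75 CPM (2.46), as well as for RPL37 with 195 CPM (112) and for RPS29 with 61.6 CPM (39.1), both of which passed in no pair of cuts. HM2 did so for RPL10 with 567 CPM (470) and for RPS7 with 347 CPM (289). PB8 stood apart for RPL36A-HNRNPH2 with 93.7 CPM (65.5) and for RPL7L1 with 36.4 CPM (26.8). LDM10 did so for RPL38 with 44.9 CPM (31.98), for RPL3L with 391 CPM (320) and for RPLP2 with 93.0 CPM (73.8). In TM these were TM10 for RPL38 with 33.9 CPM (26.2), TM1 for RPL3L with 290 CPM (234) and TM7 for RPS27L with 28.2 CPM (20.2). In all 15 the library was the highest of its cut.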

How the results depend on the processing

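The number of members that differed among the 4 cuts was 43, and it was 36 to 46 over the other alternatives that gave an F test and 36 to 43 with 1 library left out. Lower genes numbered 28 to 34 in PB over LDM, 17 to 24 in TM over LDM and 23 to 29 in HM over LDM over the alternatives, and 29 to 35, 18 to 21 and 23 to 30 with 1 library left out. Higher genes with 1 library left out numbered 1 to 2 in PB over LDM, 1 to 2 in TM over LDM and 2 to 3 in HM over LDM. The number was 1 in PB over LDM without PB3, PB5, PB6, PB7, PB8, LDM2, LDM3, LDM4 or LDM10 and with limma-voom, and 2 in TM over LDM without HM5 and with the pair fitted alone. Lower genes in PB over HM numbered 5 with DESeq2 size factors, 2 with mitochondrial genes out of the scaling, 1 with members out of the scaling, 6 with DESeq2, 5 with no filter, 3 with the pair alone and 3 with the length correction, against 11. Lower genes in PB over TM numbered 20 with upper-quartile scaling, 6 with mitochondrial genes out, 7 with members out, 19 with limma-voom, 7 with no filter, 7 with the pair alone and 6 with the length correction, against 12. With 1 library left out the ranges were 2 to 8 higher and 1 to 13 lower in PB over HM, 2 to 5 higher and 4 to 14 lower in PB over TM, and 0 in TM over HM. The cause of these shifts was not tested, and the shares of all genes called under the alternatives are not reported here. No scaling moved the median of all genes by over 0.1 (log2). The share of counts in PB was 0.835% with mitochondrial genes out of the total. The RPL3 and RPL3L correlation in HM was -0.67 without TMM scaling and -0.90 to -0.85 with 1 library left out, and in TM it was 0.36 without TM3 and TM7, against -0.07. Of the named genes' changes under alternatives other than single libraries, 2135 kept their side of the threshold, 79 lost and 18 gained a call, and 0 reversed. Without PB1 39 members differed among cuts, and 32 were lower in PB than in LDM. Libraries of the same number had deviations that correlated at -0.128 to 0.51, over 0.1 in 52 of 60 pairs. Of the 60, 31 correlated best with their own number among the 10 libraries of the other cut. The main p-values do not use this pairing. With the library number as a replicate block 46 members differed among cuts, and higher and lower genes numbered 2 and 34 in PB over LDM, 1 and 24 in TM over LDM, 3 and 29 in HM over LDM, 6 and 14 in PB over HM, 4 and 14 in PB over TM, and 0 and 0 in TM over HM. Low counts limit what can be said of RPS13, RPL10A, RPL26 and RPL29, and the cause of these low counts was not tested.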
